A study of Mus musculus with 21 samples.

Results

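The genes of the proteasome were followed through 7 sorted fractions of mouse bone marrow. The set was taken by name: every gene whose current symbol has the form Psma, Psmb, Psmc, Psmd, Psme, Psmf or Psmg and a number, with 1 probe per gene, the brightest on average. The arrays held a probe for 48 such genes among 18213 genes with a symbol. Of the 48, 47 entered the tests, out of 14282 genes tested, and each of the 47 was well above background on all 21 arrays. The remaining gene was Psmb11, a catalytic subunit known from the thymic cortex, which was well above background on at most 1 of the 3 arrays of any fraction. The 47 comprised 15 subunits of the 20S core, 3 immunoproteasome subunits, 17 subunits of the 19S regulatory particle, 7 assembly factors, and 5 activators and inhibitors. The 48 were chosen by name, with earlier results of these data known. Measured signal decided the probe of each gene and which genes entered the tests.

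The cells came from the bone marrow of C57BL/6 mice and were sorted by surface antigen, with 3 arrays for each fraction. KLS, the multipotent fraction, was lin- ckit+ sca1+. On the erythroid side, PreMegE cells were lin- ckit+ sca1+ CD150+ CD105- and negative for the Fc gamma receptors (FCGrI/II-), CFUe cells carried the same label except CD150-, and Ter119 cells were CD71+ Ter119+. On the myeloid side, the PreGM label listed the same antigens as that of CFUe, GMP cells were lin- ckit+ sca1+ CD150- and positive for the Fc gamma receptors, and Mac1Gr1 cells were Mac1+ Gr1+. The lineage mixture held antibodies to B220, CD3, CD4, CD8, CD41, Mac1, Gr1 and Ter119. The labels name no transgene, treatment or age. Whether the 3 arrays of a fraction came from separate mice was not stated, so the p-values measure the spread between these arrays, which may in part be technical. The number of arrays limits the precision, and each level below is the log2 of the processed intensity relative to the 75th percentile of its array.

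The proteasome is the enzyme complex that degrades proteins marked with ubiquitin. Its 20S core is a barrel of alpha rings, which form the gate, and beta rings, of which Psmb5, Psmb6 and Psmb7 encode the cutting subunits. The 19S particle sits on the core, recognises ubiquitin and unfolds the substrate with a ring of ATPases (Psmc genes), and its other subunits (most Psmd genes) form the lid and the receptors. In cells of the immune system and after interferon, Psmb8, Psmb9 and Psmb10 encode the subunits that take the place of Psmb5, Psmb6 and Psmb7 and give the immunoproteasome, which supplies peptides for class I presentation. Other caps can take the place of the 19S particle, such as PA28 alpha and beta (Psme1, Psme2), PA28 gamma (Psme3) and PA200 (Psme4). In the blood lineages, protein degradation by this system is known to accompany the removal of organelles and unneeded proteins from maturing red cells.

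The immunoproteasome genes and the cutting subunits that they replace carry much of what follows, and their promoters are therefore shown, with those of Psme3 and Psmf1, which departed from the rest. Each stretch comprises the last 150 of the 250 bases searched before the gene start in the RefSeq annotation of build GRCm38.p6, written 5′ to 3′ on the strand of the gene. Capitals mark a match to 1 of 5 short motifs on either strand, as named after each group. The replaced subunits Psmb5 and Psmb6 had their stretches at chr14:54617996-54618145 on the minus strand and chr11:70525207-70525356 on the plus strand, and in both the capitals mark TGACNNNGC, the core of an antioxidant response element.
Psmb5: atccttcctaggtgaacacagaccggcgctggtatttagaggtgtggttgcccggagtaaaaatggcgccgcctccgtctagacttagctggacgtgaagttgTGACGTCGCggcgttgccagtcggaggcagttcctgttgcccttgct
Psmb6: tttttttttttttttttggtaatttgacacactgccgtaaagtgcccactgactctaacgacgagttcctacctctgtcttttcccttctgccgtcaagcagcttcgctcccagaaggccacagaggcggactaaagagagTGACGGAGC
The 3 immunoproteasome stretches lie at chr17:34198045-34198194 on the plus strand for Psmb8, chr17:34187331-34187480 on the minus strand for Psmb9 and chr8:105938393-105938542 on the minus strand for Psmb10. The capitals mark TTCNNNGAA, an interferon gamma activated sequence, in Psmb8 and ATTGG, the reverse complement of CCAAT, in Psmb9, and Psmb10 had no match.
Psmb8: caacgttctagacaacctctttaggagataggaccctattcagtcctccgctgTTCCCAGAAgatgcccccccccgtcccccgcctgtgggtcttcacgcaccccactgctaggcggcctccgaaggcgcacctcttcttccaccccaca
Psmb9: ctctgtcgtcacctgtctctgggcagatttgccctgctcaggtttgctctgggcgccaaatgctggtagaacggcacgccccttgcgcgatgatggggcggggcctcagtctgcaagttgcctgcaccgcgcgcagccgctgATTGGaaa
Psmb10: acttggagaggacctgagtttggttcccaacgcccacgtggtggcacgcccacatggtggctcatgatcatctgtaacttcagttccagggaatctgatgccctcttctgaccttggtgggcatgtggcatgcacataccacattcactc
The stretches of Psme3 and Psmf1 lie at chr11:101316063-101316212 on the plus strand and chr2:151741311-151741460 on the minus strand. The capitals mark ATTGG in Psme3 and AGATAA, the motif of GATA factors, in Psmf1.
Psme3: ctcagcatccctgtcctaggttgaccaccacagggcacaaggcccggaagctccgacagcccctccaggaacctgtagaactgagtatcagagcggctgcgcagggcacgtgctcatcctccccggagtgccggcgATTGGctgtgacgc
Psmf1: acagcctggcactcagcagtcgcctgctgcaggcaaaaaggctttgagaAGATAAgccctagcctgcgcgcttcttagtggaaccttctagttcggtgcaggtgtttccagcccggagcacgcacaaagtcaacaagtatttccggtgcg

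Over the 250 bases before each start, 40 of the 48 genes matched a RefSeq promoter, with 43 promoters in all. TGACNNNGC stood in 5 of the 43 (11.6%), against 10.2% of all 32851 promoters. CCAAT stood in 14 (32.6%), against 33.8%, and AGATAA in 2 (4.65%), against 9.99%. TTCNNNGAA stood in 2 (4.65%), Psmb8 and Psmg1, against 7.02%. GAAANN followed by GAAA, the interferon-stimulated response element, stood in 3 (6.98%), Psmb3, Psmd4 and Psmd9, against 2.98%, and in no immunoproteasome promoter. No motif holds the letters of another, the shares are descriptions, and a match is not a site.

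The sorted fractions were compared with their markers before the results were read. Klf1, an erythroid transcription factor, averaged 3.91 in CFUe and -1.88 in PreGM, so the transcripts separated the fractions whose labels list the same antigens. Ly6a, which encodes Sca1, averaged 2.57 in KLS, -3.14 in PreMegE, -0.31 in PreGM and -5.81 in CFUe, where it was above background on 1 of 3 arrays, although all these fractions were labelled sca1+. Eng, which encodes CD105, averaged 2.47 in CFUe, labelled CD105-. The Ter119 fraction held the erythroid list at a summed log2 level of 11.8 to 12.1, above CFUe at 6.23 to 6.42, and held the granulocytic list at 12.0 to 12.4, close to Mac1Gr1 at 12.2 to 12.3 and far above CFUe at 2.05 to 4.68. The B cell list stood at 6.82 to 7.34 in Ter119 and -0.82 to 1.35 in CFUe, the T and NK cell list at 2.89 to 3.10 and -0.37 to 0.24, and the macrophage list at 3.73 to 3.80 and -1.60 to -0.88. Every detected gene of these 4 lists was above background on all 3 Ter119 arrays. CFUe replicate 3 also carried more granulocytic RNA than the other CFUe arrays, with S100a8 at -0.23, -0.25 and 2.28 on replicates 1, 2 and 3 and Mpo at 1.09, 0.73 and 4.28. The part of these transcripts in the results below was not tested.

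With arrays scaled to the 75th percentile, proteasome transcripts were highest in CFUe and lowest in the fractions at the end of each lineage. The order of CFUe and GMP turned with spike-in scaling, where the median change of all genes in CFUe against GMP was -1.15 on the log2 scale. The median of the 44 genes outside the immunoproteasome was -0.88 there, and 23 of the 47 tested members were called lower. The share of all genes called under that scaling was not counted. The median level of the 44 was 3.06, 2.90 and 3.20 on the 3 KLS arrays, 3.25, 3.38 and 3.24 in PreMegE, 4.32, 4.45 and 4.29 in CFUe and 2.41, 2.73 and 2.70 in Ter119. In the myeloid lineage the medians were 3.57, 3.50 and 3.49 in PreGM, 3.94, 3.98 and 3.79 in GMP and 2.78, 2.78 and 2.72 in Mac1Gr1. Every CFUe array lay above every array of the other 6 fractions, and the Ter119 and Mac1Gr1 arrays lay below all others, without separating from each other. Of the 44, 39 had their highest mean in CFUe. The others were Psmg4 and Psme1, highest in PreGM, Psme2, highest in Mac1Gr1, and Psme3 and Psme4, highest in Ter119. The lowest mean lay in Ter119 for 23, in Mac1Gr1 for 15, in KLS for 5 and in PreMegE for 1. Since whole fractions were measured, fewer cells of a type and less RNA per cell cannot be told apart.

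**Figure D1:**
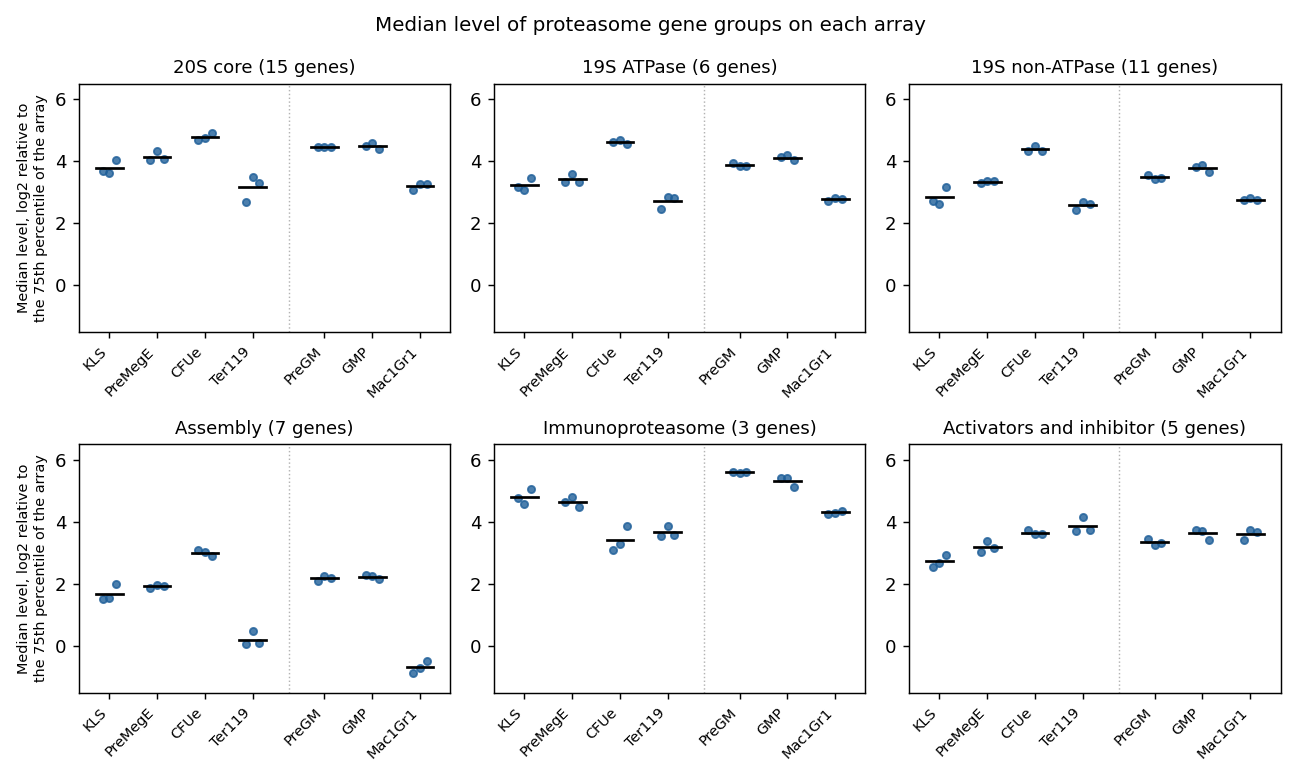
Median log2 level of each proteasome group on every array (vertical axis, relative to the array's 75th percentile) in the 7 fractions (horizontal axis), 1 panel per group. Points are arrays and bars are fraction means; the panels hold different probes, so levels are not compared between them. The 20S core, 19S and assembly groups were highest in CFUe and lowest in Ter119 or Mac1Gr1, while the immunoproteasome median was lowest in CFUe and Ter119.

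The genes also moved together from array to array. Over the 21 arrays, the correlation of a gene with the median of the other genes outside the immunoproteasome had a median of 0.939, and it was at least 0.9 for 29 of the 44. Only 5 stood under 0.5, all of them activators or the inhibitor: Psme2 at 0.45, Psmf1 at 0.43, Psme1 at 0.38, Psme4 at 0.11 and Psme3 at -0.15. The immunoproteasome genes were set against the same median, with Psmb10 at 0.70, Psmb8 at 0.04 and Psmb9 at -0.23. These correlations are descriptions, since the 21 arrays fall into 7 fractions and share their scaling.

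The first steps out of KLS moved no proteasome gene past the call, which required an adjusted p under 0.05 in limma and a change of at least 2-fold. In PreMegE against KLS, 0 of 47 were called in either direction, where 3.58% of all tested genes rose and 9.91% fell, and 10 were higher at the adjusted p alone, where 14.4% of all genes were. In PreGM against KLS, 0 of 47 were called, with 2.09% of all genes higher and 6.62% lower. At the adjusted p alone, 40 of the 47 were higher, where 16.6% of all genes were. The median change of the 44 genes was 0.57, against 0.08 over all genes, and with spike-in scaling it was -0.05, against -0.54. In GMP against PreGM, 0 were called, with 4.61% and 6.56% of all genes higher and lower, 9 were higher at the adjusted p alone, where 15.6% of all genes were, and the median was 0.23. Between the early fractions of the lineages, PreMegE against PreGM, 0 were called, with 5.16% and 7.1% of all genes higher and lower, and 21 were lower in PreMegE at the adjusted p alone, where 15.4% of all genes were, with a median of -0.36. The macrophage list, summed, stood at 4.73 to 6.20 in KLS, -1.17 to 0.07 in PreMegE and 2.65 to 2.85 in PreGM, and its part in these values was not tested. On the slides that held arrays of both fractions, the medians differed by 0.37 in GMP against PreGM and by -0.19 and -0.26 in PreMegE against PreGM.

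From PreMegE to CFUe, the step into committed erythroid progenitors, 27 of the 47 genes rose and 1, the immunoproteasome subunit Psmb8, fell. That is 57.4% of the genes higher, where 11.7% of all genes rose, and 2.13% lower, where 14.2% fell. The median change of the 44 genes was 1.04 on the log2 scale, 2.05-fold, against 0.19 over all genes, and 41 of the 47 were higher at the adjusted p alone, where 32.3% of all genes were. The rise ran through 12 of 17 19S subunits, 9 of 15 core subunits, 4 of 7 assembly factors, and Psme3 and Psmf1 among the activators and inhibitors. Many changes lay near 2-fold, and the count depended on the scaling: with quantile scaling 9 rose and 2 fell, and with spike-in scaling 0 rose and 2 fell. How many of all genes were called under these 2 scalings was not counted. Relative to the median of all genes, the 44 rose by 0.85, and by 0.49 with quantile scaling. Spike-in scaling shifts all spots of an array alike, so its value of 0.85 was the same by construction. On the slide that held arrays of both fractions, their median differed by 1.20.

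The largest rise was that of Psmd6, a lid subunit of the 19S particle. Its levels were 2.72, 2.67 and 2.75 in PreMegE and 4.32, 4.27 and 4.10 in CFUe, so the fractions did not overlap. The change was 1.51 ± 0.10 (SE, n = 3 and 3), 2.86-fold, with an adjusted p of 1.82e-09. Psmg3, an assembly chaperone of the core, rose by 1.45 ± 0.23 from levels of 1.87, 2.41 and 2.06 to 3.39, 3.60 and 3.70 (2.73-fold, adjusted p = 4.67e-05). Both fell under 2-fold with spike-in scaling, Psmd6 at 0.999 and Psmg3 at 0.93.

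**Figure D2:**
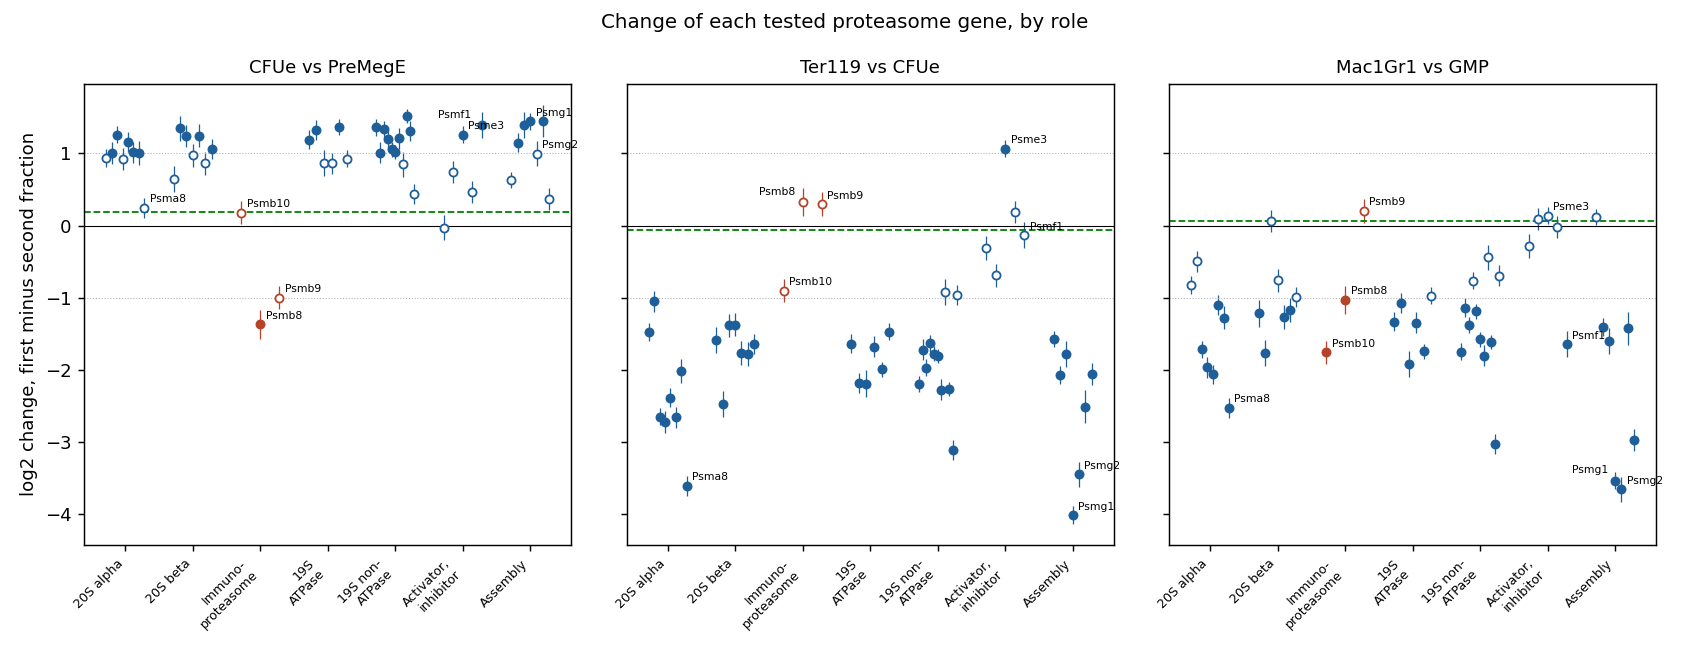
Log2 change of each of the 47 genes (vertical axis), grouped by role (horizontal axis), in CFUe against PreMegE, Ter119 against CFUe and Mac1Gr1 against GMP (1 panel each). Filled points were called and open points were not, bars are standard errors, red marks the immunoproteasome, dotted lines mark 2-fold and the dashed line marks the median of all tested genes. Of the 47 genes, 27 rose in the first panel, 37 fell in the second and 32 fell in the third.

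From CFUe to Ter119, the direction turned. Of the 47 genes, 37 fell (78.7%), where 31.8% of all genes fell, and 1 rose (2.13%), where 29.3% rose. All 15 core subunits fell, as did 15 of 17 19S subunits and all 7 assembly factors, and the median change of the 44 genes was -1.78, 3.44-fold lower, against -0.06 over all genes. The median was -2.52 over the 8 alpha subunits and -1.64 over the 7 beta subunits. None of the 3 immunoproteasome genes was called, and Psme3 was the gene that rose. Over the scalings the median stayed between -3.16 with spike-in and -1.46 with quantile scaling, and on the slide that held arrays of both fractions the median differed by -1.62. Beside these values stand the granulocytic, B cell, T and NK cell and macrophage transcripts of the Ter119 fraction given above, whose part was not tested.

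The steepest fall was that of Psmg1, which pairs with Psmg2 in a chaperone for the alpha ring. Its levels were 3.38, 3.56 and 3.48 in CFUe and -0.66, -0.59 and -0.37 in Ter119. The change was -4.01 ± 0.12, 16.1-fold lower, with an adjusted p of 2.62e-14. Psma8, an alpha subunit best known from testis, fell by 12.2-fold (log2 change -3.61 ± 0.14, adjusted p = 3.84e-13), from 0.50, 0.26 and 0.52 to -3.12, -3.32 and -3.10. In both genes the arrays of the fractions lay far apart beside their spread within a fraction.

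The cutting subunits of the constitutive core fell by similar amounts. Psmb5, with the chymotrypsin-like activity, went from 4.46, 4.61 and 4.67 in CFUe to 2.61, 3.05 and 2.78 in Ter119, a change of -1.77 ± 0.16 (adjusted p = 2.6e-08). Psmb6, with the caspase-like activity, changed by -1.78 ± 0.16 (adjusted p = 2.69e-08), and Psmb7, with the trypsin-like activity, by -1.64 ± 0.14 (adjusted p = 9.4e-09). In the step before, Psmb5 and Psmb7 had risen by 1.24 ± 0.16 and 1.06 ± 0.14 (adjusted p = 6.47e-06 and 7.04e-06), and Psmb6 changed by 0.86 ± 0.16, under 2-fold. The rises of Psmb5 and Psmb7 also came to less than 2-fold under quantile scaling (0.83 and 0.70) and spike-in scaling (0.73 and 0.54), and that of Psmb7 without CFUe replicate 2 (0.996).

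At the end of the myeloid lineage, from GMP to Mac1Gr1, 32 of the 47 genes fell (68.1%), where 30.8% of all genes fell, and 0 rose, where 26.9% rose. The median change of the 44 genes was -1.30, 2.47-fold lower, against 0.06 over all genes, and at the adjusted p alone 40 were lower, where 39.7% of all genes were. The fall took in 10 of 15 core subunits, 13 of 17 19S subunits, 6 of 7 assembly factors, 2 of 3 immunoproteasome subunits and 1 of 5 activators and inhibitors. Under spike-in scaling, which moved the median of all genes to -1.97, all 47 fell, and the share of all genes that fell there was not counted. No slide held arrays of both fractions. The interferon-stimulated list stood at 4.18 to 4.41 in GMP and 7.60 to 7.78 in Mac1Gr1, the erythroid list at -0.51 to 0.00 and 3.04 to 3.51, the T and NK cell list at no more than -0.29 and at least 2.65, the B cell list at 3.13 to 3.36 and 4.70 to 5.52, the macrophage list at 3.79 to 3.91 and 4.87 to 5.03, and the granulocytic list at 9.83 to 9.91 and 12.2 to 12.3, and their part was not tested. The largest falls were those of the assembly chaperones Psmg2 and Psmg1. Psmg2 went from 3.03, 2.96 and 2.78 to -0.98, -0.73 and -0.49, 12.6-fold lower (log2 change -3.66 ± 0.18, adjusted p = 5.58e-12), and Psmg1 from 2.81, 2.78 and 2.76 to -0.85, -0.77 and -0.63, 11.6-fold lower (log2 change -3.53 ± 0.12, adjusted p = 1.02e-13). Psmb5 changed by -1.27 ± 0.16 and Psmb6 by -1.17 ± 0.16, and Psmb7, at -0.99 ± 0.14, missed 2-fold.

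The final steps of the lineages share no array, and 29 genes fell in both. They were 78.4% of the 37 that fell in Ter119 and 90.6% of the 32 that fell in Mac1Gr1. Of all genes tested, 22% fell in both, and these were 69.2% of those that fell in Ter119 and 71.5% of those that fell in Mac1Gr1. The difference was not tested. Both steps used the same estimate of the spread. The granulocytic list stood at 12.0 to 12.4 in Ter119 and 12.2 to 12.3 in Mac1Gr1, and its part in the overlap was not tested. The 8 called in Ter119 alone were the core subunits Psma1, Psma2, Psmb3, Psmb4 and Psmb7, the ATPase Psmc6, the lid subunit Psmd13 and the base chaperone Psmd10. The 3 called in Mac1Gr1 alone were Psmb8, Psmb10 and Psmf1. Over all 9 pairs of fractions, 42 of the 47 were called at least once, where 85.8% of all genes were. The 5 never called on their brightest probe were the PA28 subunits Psme1 and Psme2, the PA200 gene Psme4 (whose other probes are given below), the ubiquitin receptor Psmd4 and the lid subunit Psmd8. Psmd4 and Psmd8 passed the adjusted p in Ter119 against CFUe with changes of -0.92 ± 0.18 and -0.96 ± 0.14 (adjusted p = 0.000144 and 9.57e-06), under 2-fold.

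The assembly factors had a lower median change than the core or the 19S subunits in both final steps. Their median was 3.11, 3.02 and 2.91 in CFUe and 0.06, 0.48 and 0.10 in Ter119, and 2.29, 2.25 and 2.16 in GMP and -0.85, -0.71 and -0.49 in Mac1Gr1. In Ter119 against CFUe the 7 changed by -4.01 to -1.57, with a median of -2.07. In Mac1Gr1 against GMP they ranged from -3.66 to 0.11, with a median of -1.60. The value of 0.11 was that of Psmd10, known as gankyrin, a chaperone of the 19S base, whose levels were 0.89, 0.81 and 0.77 in GMP and 0.81, 1.04 and 0.96 in Mac1Gr1, with overlap of the arrays. In Ter119 it fell, with a change of -1.57 ± 0.11 (adjusted p = 9.88e-10), to levels of -0.52, -0.07 and -0.12 from 1.27, 1.34 and 1.40. The 19S ATPases and the other 19S subunits had nearly the same medians in Ter119 against CFUe, -1.84 and -1.81, with 6 of 6 and 9 of 11 lower.

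The activators and the inhibitor followed other courses. Psme3, which encodes the nuclear activator PA28 gamma, passed the call for a rise at the second and the final erythroid step. Its levels were 1.43, 1.16 and 1.39 in PreMegE, 2.68, 2.61 and 2.47 in CFUe and 3.71, 3.63 and 3.62 in Ter119. PreMegE against KLS was not called. The change was 1.26 ± 0.11 in CFUe against PreMegE (adjusted p = 1.11e-07) and 1.06 ± 0.11 in Ter119 against CFUe (adjusted p = 1.99e-07), and the arrays of neighbouring fractions did not overlap. The rise in Ter119 lay near the 2-fold limit and fell under it with normexp background correction (0.82), while spike-in scaling turned its sign (-0.31). In the myeloid fractions the levels were 1.85, 1.77 and 1.94 in GMP and 2.14, 1.75 and 2.07 in Mac1Gr1. Relative to Mac1Gr1, Ter119 was 3.17-fold higher (log2 difference 1.66 ± 0.11, adjusted p = 2.00e-09), and 0.94 on the log2 scale with spike-in scaling.

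Psmf1, which encodes the regulator PI31, rose in CFUe and stayed high in Ter119. Its levels were 0.21, 0.40 and 0.40 in PreMegE, 1.54, 1.87 and 1.77 in CFUe, 1.04, 1.96 and 1.77 in Ter119, 0.55, 0.72 and 0.54 in GMP and -1.15, -0.82 and -1.15 in Mac1Gr1. The rise in CFUe was 1.39 ± 0.18 (adjusted p = 6.34e-06), or 0.87 with spike-in scaling, and the change from CFUe to Ter119 was -0.14 ± 0.18 (adjusted p = 0.5). From CFUe to Ter119 its other probes changed by -0.45 and 0.22 (adjusted p = 0.0291 and 0.0835). Spike-in scaling moved the median of all genes in that comparison to -1.43. In Mac1Gr1 it changed by -1.64 ± 0.18 (adjusted p = 2.71e-07). The 2-fold call rested on the brightest of its 3 probes. The others changed by -0.89 and -0.56 (adjusted p = 0.000213 and 0.000205), and the median over the probes, at -0.71, was not called. The probe at -0.89 was well above background on 3 of the 6 arrays compared, none of them of Mac1Gr1. Ter119 and Mac1Gr1 differed in Psmf1 by 2.63 ± 0.18, 6.19-fold, with an adjusted p of 1.99e-09, and the other probes differed by 2.47 (the probe dim in Mac1Gr1) and 1.96.

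**Figure D3:**
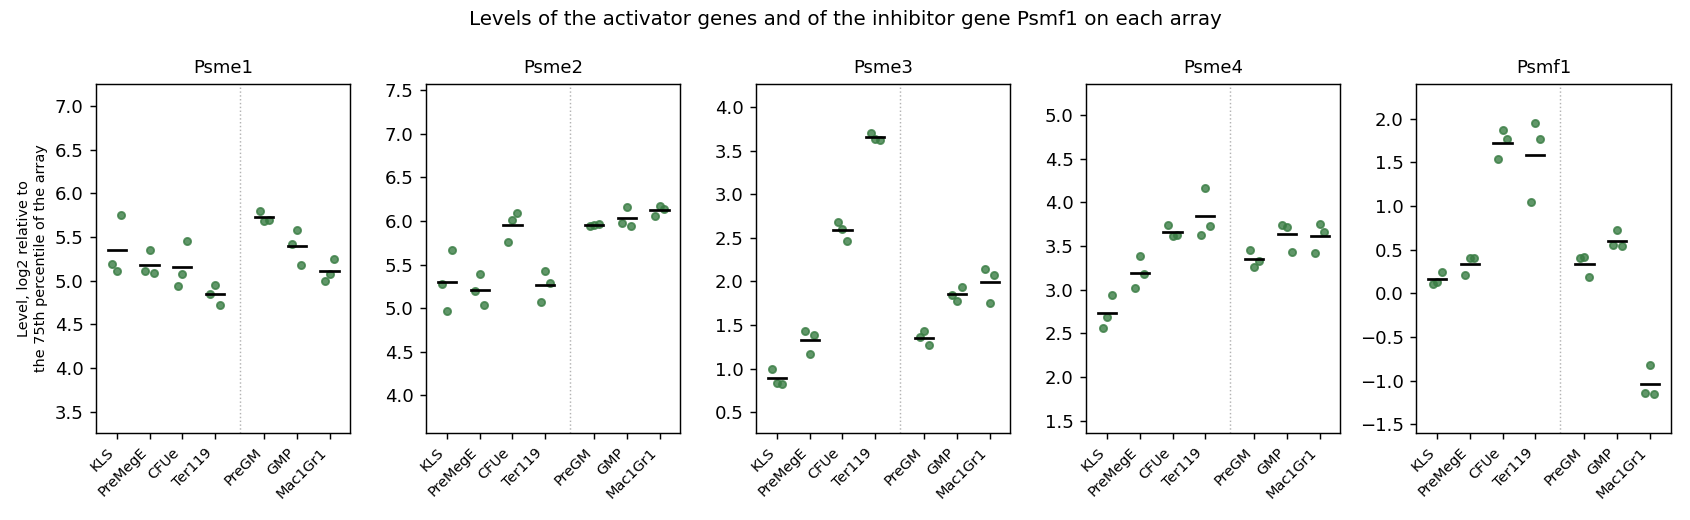
Log2 level relative to the array's 75th percentile (vertical axis) of the activator and inhibitor genes on every array of the 7 fractions (horizontal axis), 1 panel per gene, with vertical axes of equal span. Points are arrays and bars are fraction means, and levels are not compared between genes. Psme3 climbed to 3.62 to 3.71 in Ter119, and Psmf1 was lowest in Mac1Gr1, at -1.15 to -0.82.

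Psme1 and Psme2, the interferon-responsive PA28 subunits, and Psme4 moved less. The fraction means of Psme1 lay between 4.84 in Ter119 and 5.72 in PreGM, and those of Psme2 between 5.21 in PreMegE and 6.12 in Mac1Gr1. Psme4, or PA200, lay between 2.73 in KLS and 3.84 in Ter119. On the brightest probe of each, none of these passed the 2-fold call between any pair of fractions compared. The 3 probes of Psme4 disagreed: in Ter119 against CFUe they changed by 0.18, 1.23 and -0.57 and in Mac1Gr1 against GMP by -0.02, 1.18 and -0.53, with the brightest first, and the probe at 1.23 and 1.18 passed the call in both (adjusted p = 6.89e-07 and 1.21e-06).

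The immunoproteasome genes did not share the rise in CFUe. Psmb8, which replaces Psmb5, had levels of 4.77, 4.58 and 5.07 in KLS, 4.64, 4.82 and 4.49 in PreMegE, 2.93, 3.03 and 3.87 in CFUe and 3.46, 3.79 and 3.55 in Ter119. It fell in CFUe by 2.59-fold (log2 change -1.37 ± 0.20, adjusted p = 1.77e-05), and the fall was -1.20 to -1.89 over all the settings tried. CFUe replicate 3, the array with more granulocytic RNA, held the highest Psmb8 of the CFUe arrays, and without it the change was -1.67. Over this step the granulocytic list stood at 5.40 to 5.62 in PreMegE and 2.05 to 4.68 in CFUe, the B cell list at 2.08 to 2.39 and -0.82 to 1.35, and the macrophage list at -1.17 to 0.07 and -1.60 to -0.88, and their part was not tested. In Ter119 against CFUe, Psmb8 changed by 0.32 ± 0.20 (adjusted p = 0.143), with a sign that turned under spike-in scaling (-1.05). On the slide with arrays of CFUe and PreMegE, the immunoproteasome median differed by -1.34.

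Psmb9, which replaces Psmb6, had levels of 4.28, 4.53 and 4.30 in PreMegE, 3.10, 3.29 and 3.73 in CFUe and 3.55, 3.87 and 3.59 in Ter119. Its change in CFUe was -0.998 ± 0.16 (adjusted p = 7.5e-05), which lay just under the 2-fold limit. Psmb10, which replaces Psmb7, had levels of 5.33, 5.32 and 4.99, 5.18, 5.39 and 5.59 and 4.39, 4.62 and 4.45 in the same fractions. PreMegE and CFUe overlapped in Psmb10, and Ter119 lay below both, with a change of -0.90 ± 0.16 from CFUe (adjusted p = 6.18e-05), under 2-fold. Of the immunoproteasome genes, Psmb10 thus came closest to the course of the core, as its correlation of 0.70 also showed.

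In the myeloid fractions the 3 genes parted. Psmb8 was 5.62, 5.57 and 5.60 in PreGM, 5.41, 5.42 and 5.14 in GMP and 4.26, 4.30 and 4.32 in Mac1Gr1, and the final step was -1.03 ± 0.20 (adjusted p = 0.000145). That call was lost without GMP replicate 1 (-0.99) or GMP replicate 2 (-0.98). Psmb10 fell by 3.38-fold (log2 change -1.76 ± 0.16, adjusted p = 2.08e-08), from 5.95, 6.11 and 5.92 to 4.21, 4.13 and 4.37. Psmb9 was 4.59, 4.71 and 4.40 in GMP and 4.65, 4.84 and 4.84 in Mac1Gr1, a change of 0.21 ± 0.16 (adjusted p = 0.264). In Ter119 against Mac1Gr1, Psmb9 was 2.15-fold lower (adjusted p = 1.61e-05), a call lost under quantile scaling (-0.63) and with the slide as a block (-0.88).

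Each immunoproteasome gene was next set against the subunit it replaces within the same array, where a scaling factor of the array cancels. Probes differ in brightness, so only the change of this log2 difference between fractions is read, not its level. For Psmb8 and Psmb5, the difference was 1.32, 1.32 and 1.30 in PreMegE, -1.53, -1.58 and -0.81 in CFUe and 0.85, 0.74 and 0.77 in Ter119, so it dropped by 2.61 and then rose by 2.09. For Psmb9 and Psmb6 it was -0.09, -0.07 and 0.05, -2.10, -2.07 and -1.51 and 0.28, 0.04 and 0.25, with changes of -1.86 and 2.08. For Psmb10 and Psmb7 it was 2.33, 2.32 and 2.16, 1.30, 1.27 and 1.60 and 2.30, 2.17 and 1.90, with changes of -0.88 and 0.73. In all 3 pairs, the CFUe arrays lay below every PreMegE and every Ter119 array. In Mac1Gr1 against GMP the pairs went different ways, with 0.24 for Psmb8 and Psmb5, 1.38 for Psmb9 and Psmb6, and -0.77 for Psmb10 and Psmb7. Each of these 9 changes had an exact two-sided permutation p of 0.1, the smallest that 3 arrays against 3 allow, and 0.1125 after Benjamini-Hochberg adjustment over the 27 comparisons of this kind, so none could reach 0.05. The rises of the pairs in Ter119 lay mostly in the falls of Psmb5, Psmb6 and Psmb7 given above. The immunoproteasome genes themselves changed by -0.90 to 0.32 from CFUe, and none was called. In CFUe against PreMegE, Psmb10 changed by 0.18, so its pair dropped through the rise of Psmb7. The interferon-stimulated list stood at 4.19 to 4.37 in CFUe and 7.56 to 8.10 in Ter119, and its part was not tested.

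**Figure D4:**
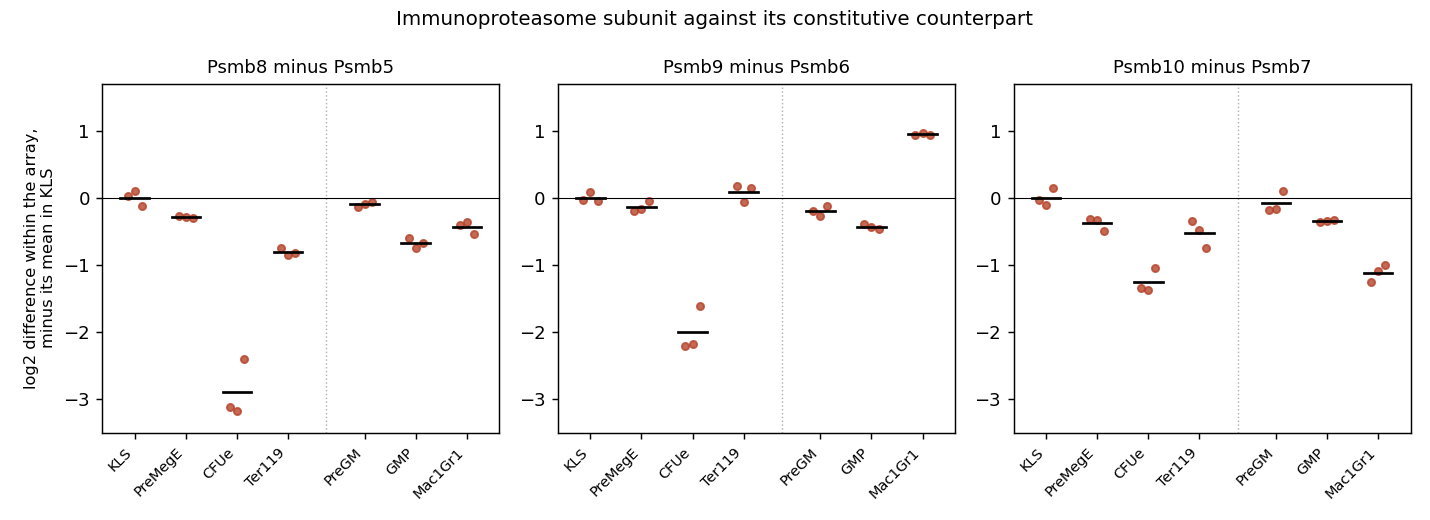
Within-array log2 difference between each immunoproteasome gene and the constitutive subunit it replaces, minus its mean in KLS (vertical axis), on every array of the 7 fractions (horizontal axis), 1 panel per pair. Points are arrays and bars are fraction means. In each pair the CFUe arrays lay below the PreMegE and Ter119 arrays.

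The lineages were also compared at the same stage. In CFUe against GMP, 3 genes were higher (6.38%, where 11.9% of all genes were), and 2 were lower (4.26%, where 15.5% were). The higher genes were Psmf1, at 1.12 ± 0.18 (adjusted p = 5.68e-05), Psmg2, at 1.12 ± 0.18 (adjusted p = 4.34e-05), and Psmd5, a chaperone of the 19S base, at 1.01 ± 0.13 (adjusted p = 4.44e-06). The lower genes were Psmb8, 4.14-fold lower (adjusted p = 1.35e-07), and Psmb9, 2.29-fold lower (adjusted p = 1.05e-05, and -0.93 on the log2 scale with the slide as a block). The median of the 44 was 0.50, against 0.23 over all genes, and the higher calls were lost or turned with other scalings. Under spike-in scaling, Psmf1 and Psmg2 were each -0.26 and the median of the 44 was -0.88, against -1.15 over all genes.

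In Ter119 against Mac1Gr1, 3 genes were higher (6.38%, where 23.5% of all genes were) and 3 lower (6.38%, where 19.5% were). Psme3, Psmf1 and Psmg2 were higher, Psmg2 by 1.33 ± 0.18 (adjusted p = 4.39e-06). Psma6, an alpha subunit, differed by -1.31 ± 0.14 (adjusted p = 4.62e-07), Psmd10 by -1.17 ± 0.11 (adjusted p = 1.1e-07), and Psmb9 as given above. The median of the 44, -0.10, turned to 0.22 with quantile scaling and 0.013 without Ter119 replicate 1.

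Whether a step differed between the lineages was tested directly, as the erythroid change minus the myeloid change. For the second step (PreMegE to CFUe against PreGM to GMP), 11 of the 47 differed (23.4%), near the 22.1% of all genes, with 10 higher and Psmb8 lower. For the final step (CFUe to Ter119 against GMP to Mac1Gr1), 8 differed (17.0%), under the 41.3% of all genes. The largest differences at that step were Psmd10 at -1.69 ± 0.16, Psma6 at -1.56 ± 0.20 and, the other way, Psmf1 at 1.51 ± 0.26.

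Genes that work with the proteasome did not all follow it. Of 24 matched partners (ubiquitin genes, shuttle factors, deubiquitinases and unfolding factors), 5 rose and 1 fell in CFUe against PreMegE, where 11.7% and 14.2% of all genes did. In Ter119 against CFUe, 2 rose and 11 fell, where 29.3% and 31.8% of all genes did, and the median was -0.92. The shuttle factor Rad23b changed by -3.16 in Ter119 (8.92-fold lower, adjusted p = 8.33e-13). Ubb, a polyubiquitin gene, rose by 1.43 (adjusted p = 1.69e-06), and Txnl1, a thioredoxin bound to the 19S particle, changed by -2.56 (adjusted p = 3.96e-12). In Mac1Gr1 against GMP, 3 partners rose and 6 fell, where 26.9% and 30.8% of all genes did, with a median of -0.64. Zfand5, which binds ubiquitin and the proteasome, rose by 1.61 (adjusted p = 1.29e-08), while Rad23b changed by -3.01 (adjusted p = 1.44e-12) and Usp14, the deubiquitinase of the 19S particle, by -2.90 (adjusted p = 2.26e-10).

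Of 11 matched genes of class I presentation, 2 rose and 4 fell in Ter119 against CFUe, where 29.3% and 31.8% of all genes did, with a median of -0.50. In Mac1Gr1 against GMP, 4 rose and 2 fell, where 26.9% and 30.8% of all genes did, with a median of 0.98. The peptide transporter genes Tap1 and Tap2 fell in Ter119, by 1.21 and 1.07. Nlrc5, an activator of class I genes, rose in Ter119 by 1.46 (adjusted p = 1.86e-05), and H2-D1, a class I heavy chain, rose in Mac1Gr1 by 1.90 (adjusted p = 1.68e-09). Calr, a chaperone of the loading complex, and Erap1, which trims peptides, fell in both, with changes of -1.52 and -1.45 in Ter119 (adjusted p = 7.25e-08 and 3.76e-10) and -3.91 and -2.58 in Mac1Gr1 (adjusted p = 3.85e-13 and 2.63e-13).

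Ribosomal protein genes, another large set of stable complexes, were measured on the same arrays. In CFUe against PreMegE the median of the 44 proteasome genes, 1.04 with 27 higher, stood beside 1.09 for the 78 mitochondrial ribosomal protein genes, with 50 higher, and 0.33 for the 75 cytosolic ones, with 3 higher. In Ter119 against CFUe the medians were -1.78 with 37 lower, -2.42 with 76 lower and -1.59 with 62 lower. In Mac1Gr1 against GMP they were -1.30 with 30 lower, -1.90 with 64 lower and -1.66 with 63 lower. The fall at the end of both lineages was therefore seen in all 3 sets, and no difference between the sets was tested.

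The scaling of the arrays bears on all medians and is given last. Under spike-in scaling the median of all tested genes itself shifted, by -0.32 in CFUe against PreMegE, -1.43 in Ter119 against CFUe, -1.97 in Mac1Gr1 against GMP and 1.04 in GMP against PreGM. The medians of the 44 became 0.52, -3.16, -3.34 and 1.25. Relative to all genes they were 0.85, -1.73, -1.36 and 0.20 under the 75th percentile, and 0.49, -1.24, -1.33 and 0.11 under quantile scaling. Spike-in scaling gave the same values as the 75th percentile by construction, since each shifts all spots of an array alike.

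**Figure D5:**
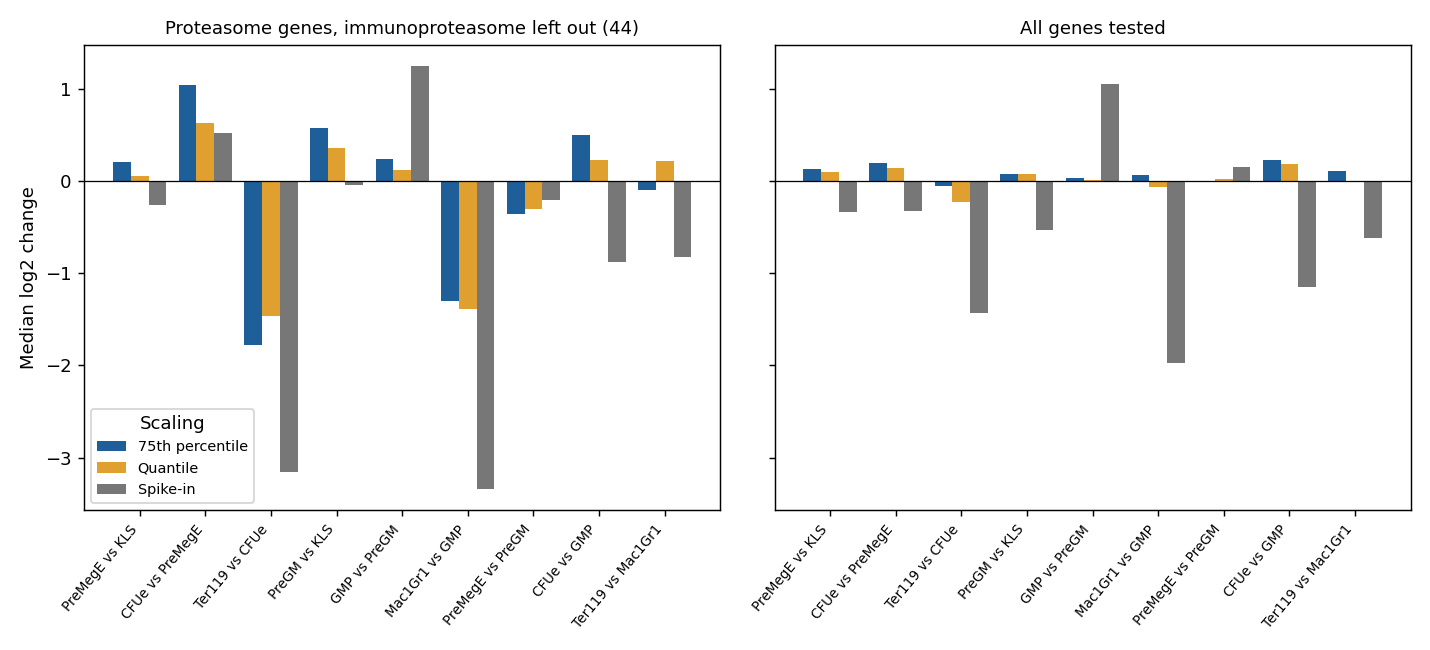
Median log2 change (vertical axis) of the 44 proteasome genes outside the immunoproteasome (left) and of all tested genes (right) in each comparison of fractions (horizontal axis) under 3 scalings of the arrays. Bars start at 0. The falls in Ter119 against CFUe and Mac1Gr1 against GMP held under all 3 scalings, while the sign differed between them in PreMegE against KLS, PreGM against KLS, CFUe against GMP and Ter119 against Mac1Gr1.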

How the data were processed

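RNA from 21 sorted samples of mouse bone marrow (TRIzol, Cy3, 1 colour) was hybridised to Agilent arrays, and the deposited scanner files hold spot intensities from Agilent Feature Extraction 10.7.1.1 (the version and the mm9 probe annotation per the file headers and the submitters' processing notes), from which that program had already subtracted background. The authors also deposited a series table on the log2 scale, whose ranks matched the scanner values (rank correlation 0.9998 to 1.00) and whose centring was not stated; it was used as an alternative.

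From the processed intensity of 43379 non-control spots, log2 values were scaled to the 75th percentile of each array, spots flagged as outliers (80 to 283 per array) were dropped, and spots of 1 probe were averaged (41174 probes). No spot was saturated. Probes were named through the RefSeq accession of the scanner files. Tests covered the 29533 probes that were well above background throughout the 3 arrays of some fraction, and 56.4% to 77.4% of spots per array were well above background. limma 3.58.1 in R 4.3.3 fitted 7 fraction means to all 21 arrays, with Benjamini-Hochberg adjustment over all tested probes of a comparison. A call needed an adjusted p under 0.05 and at least 2-fold. The residual SD had a median of 0.262 with 14 degrees of freedom. Simulated data for Mac1Gr1 against GMP (29533 probes) held independent noise and a log2 change of 2 in 200 probes. Of these, 176 were recovered, and 2 unchanged probes were called. No other probe or fraction differed, so these rates do not describe calls near 2-fold.

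The members and lists were chosen with earlier results of these data known. The genes named were the immunoproteasome genes and their counterparts, the activators and Psmf1, the 2 largest called rises and falls of each comparison whose fractions did not overlap, members never called or not tested, and the 2 largest rises and falls of the partner and class I lists in the final steps; others were named after their values were seen, and some genes that this rule covers are not reported here. Of 49 RefSeq genes that fit the name, Psme2b had no probe. Of the lists, 11 of 12 granulocytic, 8 of 9 B cell, 8 of 8 T and NK cell, 9 of 10 macrophage, 8 of 9 erythroid, 11 of 12 interferon-stimulated, 24 of 26 partner and 11 of 12 class I genes were matched. Psma8, Psmb1, Psmb2, Psmb7, Psmc3, Psmd3, Psmd7 and Psmg2 had no promoter in the RefSeq table. Alternatives were quantile and spike-in scaling (7 of 10 spike sequences), the series table, normexp with offset 50, no filter on dim probes, no minimum fold, the slide or replicate number as a block, the median of a gene's probes, the 6 arrays of a comparison alone, and leaving out each array. The arrays lay on 9 slides scanned on 1 day. No pairing by replicate number was seen in the values: deviations of same-numbered arrays correlated with a median of 0.0024 (-0.43 to 0.37) against 0.0076 for others. This check cannot exclude that same-numbered samples were paired. Arrays of 1 slide correlated with a median of 0.116 against 0.0002 for others. Python 3.11.15, pandas 2.3.3, numpy 2.4.6 and matplotlib 3.10.9 were used.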

Additional observations from a re-analysis of the deposited data

Results flagged for a closer look

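The erythroid and the myeloid change of the same step differed, by a test of the difference itself in limma (adjusted p under 0.05 and at least 2-fold), for the following genes, with no cause weighed. For the second step (PreMegE to CFUe minus PreGM to GMP), the erythroid change was the higher one by 1.02 in Psma5, 1.15 in Psmb2, 1.07 in Psmb3, 1.01 in Psmc5, 1.15 in Psmd1, 1.03 in Psmd3, 1.04 in Psmd6, 1.15 in Psmd9, 1.12 in Psmf1 and 1.19 in Psmg3, on the log2 scale. It was the lower one in Psmb8, at -1.10. All these lie close to the 2-fold limit, and 8 of the 11 lost the call under quantile scaling.

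For the final step (CFUe to Ter119 minus GMP to Mac1Gr1), the erythroid change was the lower one by -1.56 in Psma6, -1.08 in Psma8, -1.44 in Psmb3, -1.10 in Psmc2, -1.69 in Psmd10 and -1.09 in Psmg3. It was the higher one in Psmb8, at 1.35, and in Psmf1, at 1.51. Under quantile scaling Psma6, Psmb3, Psmc2 and Psmg3 lost the call.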

How the results depend on the processing

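Falls at the end of both lineages kept their direction under the 16 settings tried for each. Counts of genes called in either direction stayed within 1.5 times. They were 35 to 46 in Ter119 against CFUe (38 in the report, 37 lower and 1 higher) and 30 to 47 in Mac1Gr1 against GMP (32, all lower). The replicate block, no filter, no minimum fold and the 6 arrays alone cannot turn a direction, since they leave the log2 changes as they are and bear only on the calls. Other counts moved. In CFUe against PreMegE, 28 genes became 11 with quantile scaling or the series table, 2 with spike-in scaling and 43 with no minimum fold. In CFUe against GMP, 5 became 2 with quantile scaling or the series table, 23 with spike-in scaling (all lower), 3 with normexp and 32 with no minimum fold. In Ter119 against Mac1Gr1, 6 became 17 with spike-in scaling and 25 with no minimum fold. Without a minimum fold, 10 genes were called in PreMegE against KLS, 40 in PreGM against KLS, 9 in GMP against PreGM and 21 in PreMegE against PreGM, where 0 were before. With spike-in scaling 42 were called in GMP against PreGM, where the median of all genes was 1.04. The 11 genes that differed at the second step became 4 with quantile scaling or the series table. Shares of all genes were not counted under the settings of this section, apart from those at the adjusted p alone given above. With 1 array left out, counts ranged from 0 to 2 in PreGM against KLS (2 without KLS replicate 3), 0 to 1 in PreMegE against PreGM (1 without PreMegE replicate 2) and 24 to 31 in CFUe against PreMegE.

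Signs were followed for the medians and for some of the named genes, so other members may also have turned. Among those followed, signs turned for Psme3 in Ter119 against CFUe (-0.31), Psmf1 and Psmg2 in CFUe against GMP (-0.26 each), the median of the 44 in CFUe against GMP (-0.88), PreMegE against KLS (-0.26) and PreGM against KLS (-0.05), and Psmb8 in Ter119 against CFUe (-1.05, not called before), all with spike-in scaling. The median in Ter119 against Mac1Gr1 turned to 0.22 with quantile scaling and 0.17 with the series table, and ranged from -0.20 to 0.013 with 1 array left out. The cause was not tested. The replicate number as a block changed no call (28, 38 and 32 genes in the steps above), and with each number once per fraction it could only change the spread. The slide as a block gave 32, 37 and 30. Among the brightest probes, dim signal limited Psmb11 alone, and another probe of Psmf1 was not well above background in Mac1Gr1. Where a gene's brightest probe was called, its other probes had the same sign in 42 of 42 values. Other probes alone were called in 6 values of 4 genes (Psmc4, Psmd9, Psme4 and Psmg2).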
